A study of Caenorhabditis elegans with 2 samples.

Results

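The fatty acid elongase genes elo-1 to elo-9 of Caenorhabditis elegans were examined in whole animals given ellagic acid (EA), a plant polyphenol, and in animals given vehicle. The 9 genes were chosen by gene name from 21163 gene rows. Animals were of the wild-type strain N2, and the sample titles give 5 days for both groups. The EA group received 100 µM EA in 0.2% dimethyl sulfoxide mixed with its food, the Escherichia coli strain OP50, and the control group received the vehicle in the same food, both per the labels. RNA of whole animals was sequenced, with 1 library in the EA group and 1 library in the control group. The title of the series concerns lifespan, and the comparison asks how transcript levels differed with EA.

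Elongases lengthen fatty acids that are bound to coenzyme A. The elongase joins malonyl-CoA to the acyl chain in the first and usually rate-limiting step of a cycle in the endoplasmic reticulum, and a reductase, a dehydratase and a second reductase complete each round. In C. elegans, ELO-1 extends polyunsaturated fatty acids towards the chain length from which eicosanoids are made, ELO-2 extends palmitate, and ELO-5 and ELO-6 make the monomethyl branched-chain fatty acids that the worm needs for growth and for its sphingolipids. The substrates of the other family members are less well established.

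The EA library held 39421614 counts and the control library 41840364 counts. Levels are given as CPM, counts after scaling the libraries to a common size, or as FPKM, the deposited value per kilobase of transcript, which is used wherever one gene is compared with another. With 1 library per group there was no estimate of the spread between cultures, so no test was run and no difference has a replicate check. The 95% intervals cover counting error only. Genes with a mean of at least 5 CPM over both libraries are called assessed, and there were 10610 of them, with a median log2 ratio of EA to control of 0.01 and a central 95% from -0.85 to 0.57. Because the minimum is on the mean, an assessed gene can lie under 5 CPM in 1 library and pass through the other. At least 2-fold higher with EA, with an interval excluding 1, were 0.481% of assessed genes, and at least 2-fold lower were 1.52%. A smaller limit, a level at least 25% higher with EA or at least 20% lower (the same fold in either direction), was passed by 9.83% of assessed genes on the higher side and 15.6% on the lower side. Of the genes past this smaller limit, 38.6% were higher on counts and 54.3% on the deposited FPKM. Of those past 2-fold, 24.1% were higher on counts, 34.3% on FPKM and 36.6% once a length trend had been taken out.

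All 9 genes were detected in both libraries, and 7 of them were assessed. The genes elo-4, at a mean of 4.50 CPM, and elo-7, at a mean of 2.59 CPM, lay under the minimum, and elo-8, at a mean of 7.20 CPM, was the weakest gene above it. The deposited annotation gave the GNS1/SUR4 protein family, the family of long-chain fatty acid elongases, to 9 rows of the table, and these were the 9 members. The KEGG entry K10203 was assigned to 8 of the members and to no other row, and elo-8 was the member without it. In the Ensembl annotation of assembly WBcel235 their longest transcripts measured 922 to 1565 bases and encoded 274 to 320 residues. Chromosome IV carries 6 of the genes, chromosome III carries elo-4 and elo-8, and chromosome II carries elo-9.

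No elongase ratio reached 2-fold, a limit passed by 0.481% of assessed genes on the higher side and 1.52% on the lower side. On scaled counts the summed level of the family did not differ beyond counting error. Summed over the 9 genes, the EA library held 20909 elongase counts (524 CPM) and the control library 21332 counts (516 CPM), a log2 ratio of 0.02 (interval -0.01 to 0.05). As a share of all counts the family held 0.0530% with EA (interval 0.0523 to 0.0538) and 0.0510% in the control (interval 0.0503 to 0.0517). These intervals do not overlap, so the result for the sum depends on the scaling. The summed FPKM was 484 with EA and 461 in the control. Of the 9 genes, 5 had a ratio above 1 and 4 a ratio below 1. Of the 7 assessed members these were 3 and 4, beside 51.3% and 48.7% of assessed genes. The intervals of the 9 genes excluded 1 for 4 genes on the higher side, elo-1, elo-3, elo-4 and elo-7. On the lower side they excluded 1 for 4 genes, elo-2, elo-5, elo-6 and elo-9. Of the 7 assessed members 2 had an interval above 1 and 4 an interval below 1. Among assessed genes 35.2% had an interval above 1 and 33.1% an interval below 1. So at this depth an interval that excludes 1 is common. At least 20% lower were 2 of the 7 assessed members, elo-6 and elo-9, beside 15.6% of assessed genes. At least 25% higher were 0 of the 7, beside 9.83%. Without a minimum level, elo-4 and elo-7 were also past the limit, on the higher side. The median log2 ratio was -0.11 over the 7 assessed members and 0.20 over all 9, so the sign of a family median depends on the minimum.

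**Figure D1:**
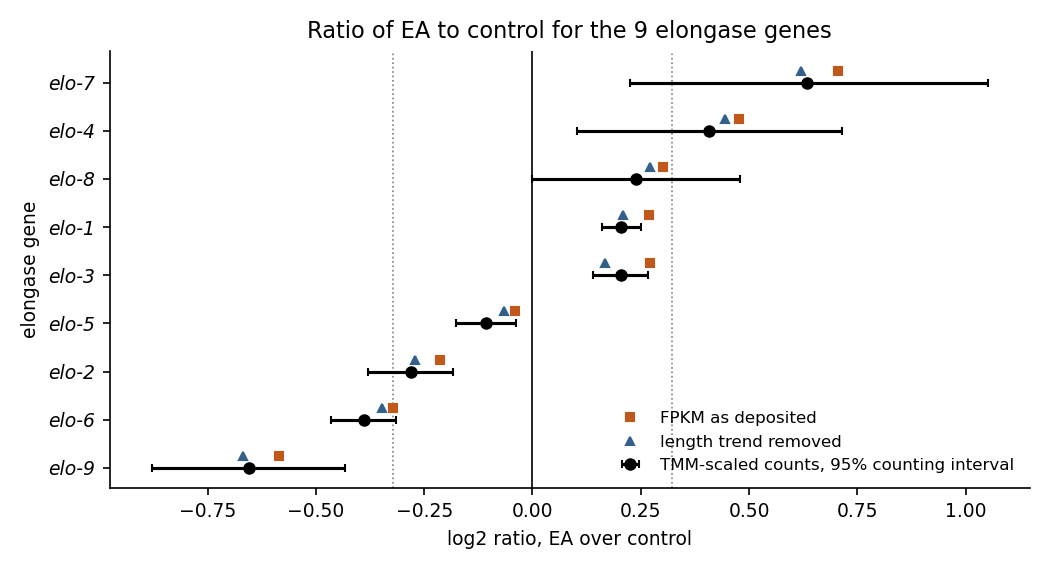
Log2 ratio of EA to control on the horizontal axis for each of the 9 elongase genes, from scaled counts (circles, bars are 95% counting intervals), from the deposited FPKM (squares) and after removal of a trend on transcript length (triangles), with dotted lines at the smaller limit. Each group is 1 library. The genes elo-2, elo-5, elo-6 and elo-9 lie below 0 and the other 5 above 0 with all 3 kinds of value, and the interval of elo-8 touches 0.

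The gene of the polyunsaturated branch, elo-1 (chromosome IV, 9526366 to 9528336, plus strand, 4 exons), had the most transcripts of the family. It had 8438 counts (211 CPM) in the EA library and 7580 counts (183 CPM) in the control library. The EA library was the higher one, by 1.15-fold (interval 1.12 to 1.19), a log2 ratio of 0.21. Of assessed genes 20.1% had a higher ratio, so the difference was well inside the range of these libraries. On the FPKM scale elo-1 stood at 207 with EA and 172 in the control. It exceeded the next gene of the family by 2.43-fold with EA and 1.96-fold in the control, and 2.22% of all rows had a higher FPKM with EA and 2.84% in the control.

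The palmitate elongase gene elo-2 (chromosome IV, 17466062 to 17467408, minus strand, 5 exons) was on the other side of 1. It had 1515 counts (37.97 CPM) in the EA library and 1906 counts (46.1 CPM) in the control library. This is 1.21-fold lower with EA (interval 1.13 to 1.30), and 18.1% of assessed genes had a lower ratio. The ratio of elo-1 to elo-2 within a library does not depend on how the libraries are scaled. In FPKM it was 5.80 with EA and 4.15 in the control, and on counts its log2 change was 0.49 (interval 0.38 to 0.59).

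Both genes of branched-chain fatty acid elongation were lower with EA, elo-6 by more than elo-5. The gene elo-5 (chromosome IV, 5374616 to 5377117, minus strand, 4 exons), without whose product worms arrest as larvae unless they are fed branched-chain fatty acids, had 3217 counts (80.6 CPM) with EA and 3591 counts (86.9 CPM) in the control. It was 1.08-fold lower (interval 1.03 to 1.13), and 33.2% of assessed genes had a lower ratio. The gene elo-6 (chromosome IV, 5386629 to 5388559, minus strand, 3 exons), which acts in the same pathway, had 2530 counts (63.4 CPM) with EA and 3434 counts (83.1 CPM) in the control. It was 1.31-fold lower (interval 1.24 to 1.38), and 12.2% of assessed genes had a lower ratio. Together the pair held 144 CPM with EA and 170.0 CPM in the control, a log2 ratio of -0.24 (interval -0.29 to -0.19).

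The pair lies on 1 strand of chromosome IV with 9511 bases and 3 annotated protein-coding genes between them. In the control library their FPKM were close, with elo-5 above elo-6 by 1.05-fold (interval 1.00 to 1.10). In the EA library elo-5 exceeded elo-6 by 1.28-fold (interval 1.21 to 1.35), and on counts the ratio differed between the libraries by 0.28 on the log2 scale (interval 0.18 to 0.38). Of the elo-5 transcript 162 bases, or 17.6%, overlap the last part of F41H10.3 on the opposite strand. F41H10.3 had 3499 counts with EA and 3260 in the control. The strand setting of the counting was not given in the sources used here, and the reads of such an overlap cannot be told apart. No annotated protein-coding gene overlaps elo-6, elo-1, elo-2, elo-8 or elo-9.

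Among the members with less well-known substrates, elo-3 was the strongest. The gene elo-3 (chromosome IV, 7237718 to 7240488, plus strand, 4 exons) had 4299 counts (108 CPM) with EA and 3867 counts (93.6 CPM) in the control. It was 1.15-fold higher with EA (interval 1.10 to 1.20). Its ratio to elo-1 differed little between the libraries. In FPKM the ratio of elo-1 to elo-3 was 3.08 with EA and 3.09 in the control, and on counts its log2 change was 0.00 (interval -0.08 to 0.08). The FPKM ratio of elo-3 to elo-6 was 1.01 with EA and 0.666 in the control, with a log2 change on counts of 0.59 (interval 0.50 to 0.69). The final 44 bases of elo-3 overlap gstk-2 on the opposite strand, which had 264 counts with EA and 414 in the control.

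The gene elo-9 (chromosome II, 14959526 to 14964108, minus strand, 5 exons) had the lowest ratio of the family. It had 268 counts (6.72 CPM) with EA and 437 counts (10.6 CPM) in the control. It was 1.57-fold lower (interval 1.35 to 1.84), a log2 ratio of -0.65, and 5.36% of assessed genes had a lower ratio. In the authors' deposited table elo-9 had an edgeR log2 fold change of -0.66 (EA over control, a direction read from the counts) with a false discovery rate of 0.0408, and the other 8 members had false discovery rates from 0.166 to 0.852 there. That table compares the same single libraries, and the spread it assumed was not stated. The 3 genes nearest to elo-9 in level in both libraries were nhr-182, spp-2 and C34C12.6, at distances of 0.0063 to 0.019 in log2 CPM over 2 libraries. The nearest, nhr-182, had 269 counts with EA and 436 in the control. These 3 genes were picked by that closeness, so their like counts and ratios follow from the choice.

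The 3 other members were, like elo-9, weak, and they had ratios above 1. The gene elo-8 (chromosome III, 11230377 to 11232069, minus strand, 5 exons) had 311 counts (7.79 CPM) with EA and 273 counts (6.60 CPM) in the control, 1.18-fold higher with an interval from 1.00 to 1.39 whose lower bound lies just under 1. The gene elo-4 (chromosome III, 9332269 to 9334274, minus strand, 5 exons) had 205 counts (5.14 CPM) with EA and 160 counts (3.87 CPM) in the control, 1.33-fold higher (interval 1.07 to 1.64). A noncoding RNA on the opposite strand covers 11.04% of the elo-4 transcript, and ufc-1, at 2156 counts with EA and 2489 in the control, overlaps another 16 bases. The gene elo-7 (chromosome IV, 9529947 to 9531400, plus strand, 6 exons) had 126 counts (3.16 CPM) with EA and 84 counts (2.03 CPM) in the control, 1.55-fold higher (interval 1.17 to 2.07). This was the highest ratio of the family and rests on the fewest counts.

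The genes elo-1 and elo-7 are adjacent on the plus strand, 1610 bases apart, and both had ratios above 1. They differ widely in level. The FPKM of elo-1 was 76.9 times that of elo-7 with EA and 104.3 times in the control, a log2 change on counts of -0.43 (interval -0.83 to -0.03). The gene that overlaps the other end of elo-7 by 64 bases on the opposite strand, F56H11.2, had 71 counts with EA and 177 in the control, a difference opposite to that of elo-7. Identity between the sequences of elo-1 and elo-7 was not computed here, and reads that both could share could not be traced.

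The order of levels differed between the libraries at 2 places. Per length, the order with EA was elo-1, elo-5, elo-3, elo-6, elo-2, elo-8, elo-9, elo-4 and elo-7, with FPKM of 207, 85.3, 67.2, 66.8, 35.7, 7.95, 5.64, 5.32 and 2.69. In the control it was elo-1, elo-5, elo-6, elo-3, elo-2, elo-9, elo-8, elo-4 and elo-7, with FPKM of 172, 87.8, 83.6, 55.7, 41.4, 8.47, 6.45, 3.82 and 1.65. So elo-3 and elo-6 changed places, and so did elo-8 and elo-9. With EA, elo-3 and elo-6 did not differ beyond counting error (ratio 1.01, interval 0.957 to 1.06), nor did elo-9 and elo-4 (ratio 1.06, interval 0.884 to 1.27). Every other pair of neighbours in either order differed beyond counting error, that of elo-5 and elo-6 in the control by the least.

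**Figure D2:**
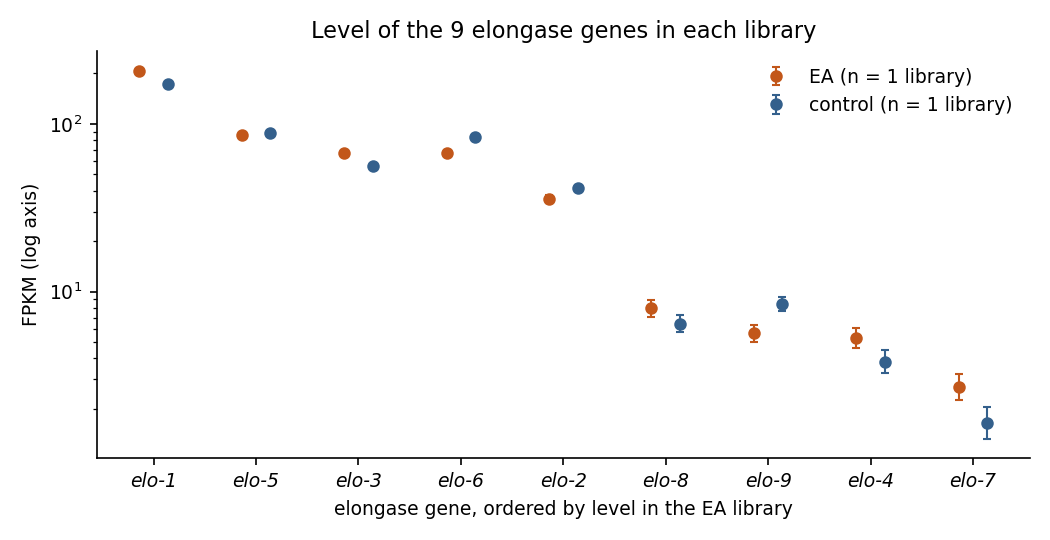
FPKM of each elongase gene on a log axis, with the EA library left of the control library, bars for the 95% counting interval and 1 library per group. From elo-1 to elo-2 the levels lie between 35.7 and 207, and the other 4 genes lie between 1.65 and 8.47 in both libraries. The intervals of the 5 stronger genes are about as small as the symbols.

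As shares of the summed elongase FPKM, elo-1 took 42.8% with EA and 37.3% in the control. The share of elo-3 was 13.9% with EA and 12.1% in the control. The shares of elo-5 and elo-6 together were 31.4% with EA and 37.2% in the control, and within them elo-6 took 13.8% with EA and 18.1% in the control. The share of elo-2 was 7.38% with EA and 8.99% in the control. The 4 weakest genes each took under 2% in both libraries.

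**Figure D3:**
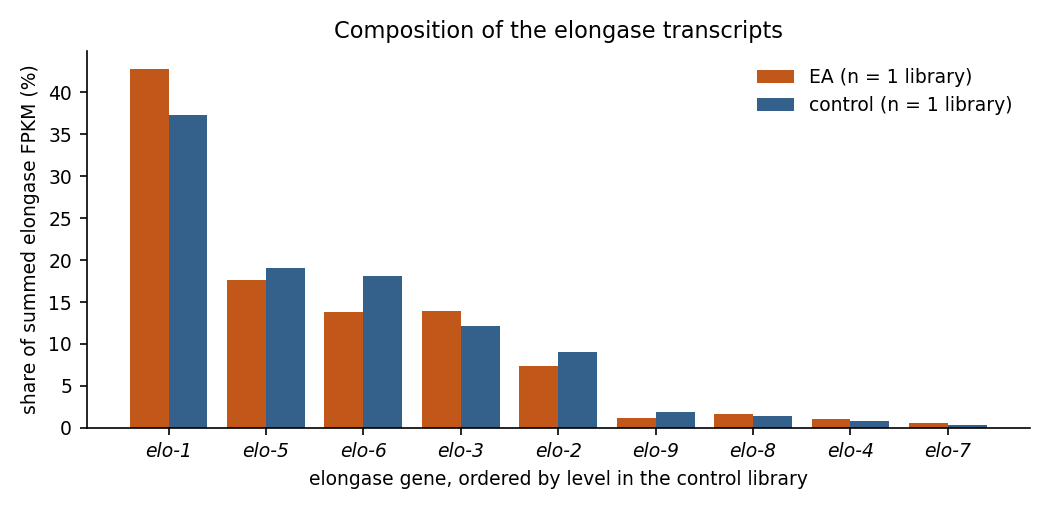
Share of the summed elongase FPKM in percent for each gene, with the EA library left of the control library and 1 library per group. The bars of elo-1 (42.8% with EA, 37.3% in the control) and elo-6 (13.8% with EA, 18.1% in the control) differ most between the libraries.

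The 7 assessed members lay within the central 95% of ratios, and elo-7, not assessed, lay above it. Of assessed genes, 7.13% had a ratio farther from 1 than that of elo-9, 18.6% farther than elo-6, 43.6% farther than elo-1 and 66.9% farther than elo-5. In bulk RNA of whole animals, fewer cells of a type and less RNA per cell cannot be told apart.

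**Figure D4:**
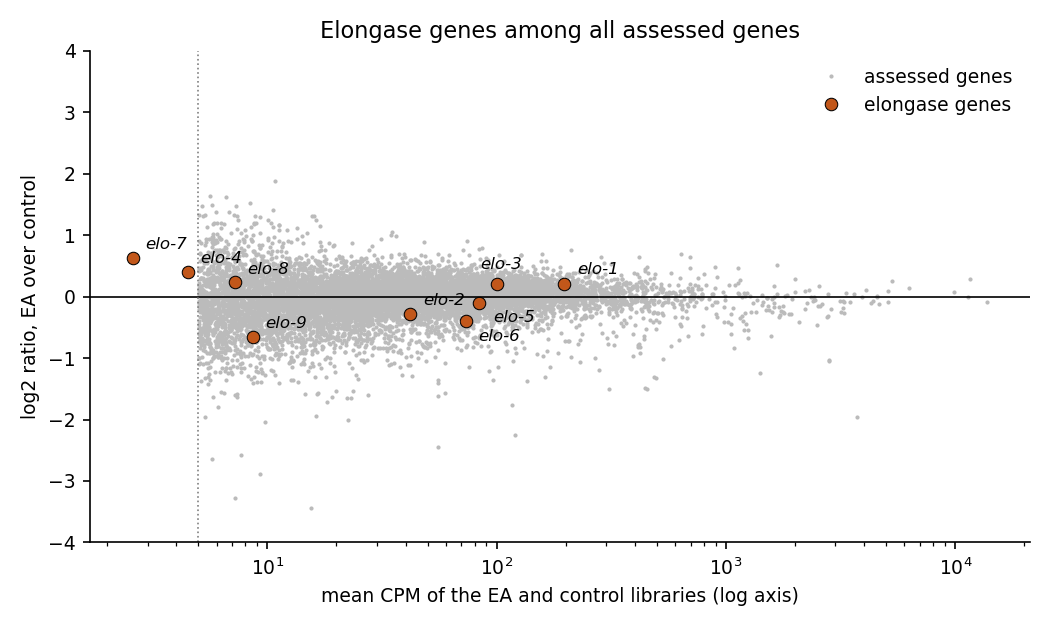
Log2 ratio of EA to control against the mean CPM of both libraries on a log axis for 10610 assessed genes (grey) and the 9 elongase genes (orange), with 1 library per group and a dotted line at the minimum of 5 CPM. The assessed elongase genes lie within the cloud of other genes, with elo-9 towards its lower edge and elo-4 and elo-7 left of the minimum.

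Marker genes of some tissues also differed between the libraries, and each tissue had markers above the minimum in both. For comparison, 51.3% of all assessed genes had a ratio above 1 and 48.7% a ratio below 1, with a median log2 ratio of 0.01. Germline markers had ratios above 1 for 11 of 12 genes, with a summed level of 2303 CPM with EA and 1858 CPM in the control and a median log2 ratio of 0.23. Sperm markers had ratios above 1 for all 7 assessed genes of 10, with sums of 201 CPM with EA and 166 CPM in the control. Neuron markers were below 1 for all 8 on scaled counts, for 7 on total counts or with the length trend removed and for 5 on FPKM, with sums of 565 CPM with EA and 602 CPM in the control. Pharynx markers were below 1 for all 5 assessed genes of 6, with sums of 409 CPM with EA and 505 CPM in the control, and phat-1 had 0 counts with EA and 3 in the control. Intestine markers were split 5 and 5, or 7 above and 3 below on total counts and on FPKM. With the length trend removed 4 were above and 6 below. The intestine markers summed to 2230 CPM with EA and 2136 CPM in the control. Body wall muscle markers had 4 above and 3 below, or 3 above and 4 below with the length trend removed, with sums of 2400.1 CPM with EA and 2376 CPM in the control. Of 8 hypodermis markers 3 were assessed and all were below 1 on scaled counts, but vha-1 was above 1 with the length trend removed and col-19 on FPKM, with sums of 692 CPM with EA and 758 CPM in the control, while the other 5, of which 4 are cuticle collagen genes, had at most 27 counts. The part of such differences in the elongase ratios was not tested.

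The enzymes that complete the elongation cycle differed little. The reductase gene let-767 had a log2 ratio of 0.09, with 136 CPM with EA and 127 CPM in the control. The dehydratase gene hpo-8 had -0.06, or 0.01 on FPKM and 0.05 with the length trend removed, and the enoyl reductase gene art-1 had 0.03. So 0 of 3 passed the smaller limit in either direction, beside 9.83% of assessed genes higher and 15.6% lower. These 3 genes had 91.2 to 143 CPM with EA and 95.2 to 140 CPM in the control.

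The genes of malonyl-CoA and palmitate metabolism were close to 1 too, and 0 of 5 passed the smaller limit. Over assessed genes, 9.83% passed it on the higher side and 15.6% on the lower side. The fatty acid synthase gene fasn-1 had 359 CPM with EA and 410.1 CPM in the control, a log2 ratio of -0.19 (interval -0.23 to -0.16). The acetyl-CoA carboxylase gene pod-2 had -0.09, the ATP citrate lyase genes acly-1 and acly-2 had 0.06 (-0.00 for acly-1 with the length trend removed) and 0.08, and the malonyl-CoA decarboxylase gene mlcd-1 had 0.04. The median of the list was 0.04, or -0.00 with the length trend removed.

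Desaturases alternate with elongases along the polyunsaturated branch, and of 7 genes 1 was at least 25% higher and 1 at least 20% lower. Of assessed genes 9.83% and 15.6% were past these limits. The stearoyl desaturase gene fat-6 had 142 CPM with EA and 279 CPM in the control (-0.98 on the log2 scale), and its close relative fat-7 had 44.7 CPM with EA and 32.9 CPM in the control (0.44). The other 5 had log2 ratios of 0.20 for fat-4, 0.17 for fat-5, 0.07 for fat-3, -0.07 for fat-1 (0.00 on FPKM) and -0.13 for fat-2. Reads shared by fat-6 and fat-7 could not be traced here, and their values are uncertain to that extent.

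Branched-chain primers come from the breakdown of leucine, and a list of genes of leucine breakdown and primer supply had ratios above 1 for 7 of 9, or for 9 of 9 on total counts and on FPKM. On scaled counts 51.3% of assessed genes had a ratio above 1. The genes elo-5 and elo-6 had ratios below 1. The list's median was 0.19, beside 0.01 over assessed genes. At least 25% higher was 1 of 9, beside 9.83% of assessed genes. That gene was acs-1, an acyl-CoA synthetase that activates branched-chain fatty acids, at 309 CPM with EA and 236 CPM in the control (log2 ratio 0.39, interval 0.35 to 0.43). The branched-chain aminotransferase gene bcat-1 had 238 CPM with EA and 204 CPM in the control (0.22). The genes mccc-1 and ivd-1, which act on the leucine breakdown products after the primer is formed, had 0.21 and 0.20. So the list's median does not describe primer formation alone. The remaining members were bckd-1A at 0.19, mccc-2 at 0.14, dbt-1 at 0.11, and bckd-1B and dld-1 at -0.02 each.

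Enzymes that use the elongated chains went both ways. Over all assessed genes, 9.83% were past the smaller limit on the higher side and 15.6% on the lower side. Of 17 assessed sphingolipid genes 3 were past the smaller limit on the higher side and 2 on the lower side, with a median of 0.02, or -0.01 with the length trend removed. Here the acid ceramidase gene asah-1 had -0.71, the glucosylceramide synthase genes cgt-1 and cgt-2 had -0.52 and 0.67, and the sphingomyelin synthase gene sms-5 had 0.45. Of 13 acyltransferase genes of phospholipid synthesis 2 were higher and 0 lower, with a median of 0.04 and with acl-8 at 0.38, acl-6 at 0.35, acl-11 at 0.31 and acl-12 at -0.20. Of 6 assessed eicosanoid genes 1 was lower and 0 higher, with a median of -0.13. The lower gene, cyp-29A3, had 4.76 CPM with EA and 7.09 CPM in the control, so it passed the minimum only through its control level. The cytochrome P450 gene cyp-29A3 had -0.57, cyp-33E1 -0.24 and cyp-33E2 -0.10, the epoxide hydrolase genes ceeh-1 and ceeh-2 had -0.11 and -0.14, and the P450 reductase gene emb-8 had 0.08. The P450 gene cyp-33E3, not assessed, had 30 counts with EA and 70 in the control.

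Acyl-CoA synthetases and acyl-CoA binding proteins had the widest range of these lists. The list is not limited to genes that serve the elongases, and its lowest ratio was that of a fatty acid oxidation gene, acs-2. Of 20 assessed genes 3 were past the smaller limit on the higher side and 6 on the lower side, with a median of 0.08. Of all assessed genes 9.83% and 15.6% were past it on these sides. The gene acs-2 had a log2 ratio of -2.45. It was the one assessed gene of this list past 2-fold, beside 1.52% of all assessed genes at least 2-fold lower. The acyl-CoA binding protein gene acbp-1 had -0.90, or -0.47 after removal of the length trend. The genes acs-22 and acs-7 had 0.68 and 0.67.

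The regulators of fat synthesis had a median of -0.02 over 11 genes, or 0.02 on total counts, 0.10 on FPKM and -0.08 with the length trend removed. At least 25% higher were 0, beside 9.83% of assessed genes, and 1 was at least 20% lower, beside 15.6%. That gene was sams-1, an S-adenosylmethionine synthetase of phosphatidylcholine supply, at 55.3 CPM with EA and 81.2 CPM in the control (-0.55). The gene scp-1, a relative of the sterol sensor SCAP, had -0.32, the nuclear receptor gene nhr-13 had 0.30 and the methyltransferase gene pmt-2 had -0.25. Named here after their values were seen, sbp-1, the worm SREBP, had 0.04 and the nuclear receptor gene nhr-49 had -0.02, and neither interval excluded 0. The sign of sbp-1 turned with the length trend removed, and that of nhr-49 on total counts and on FPKM.

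**Figure D5:**
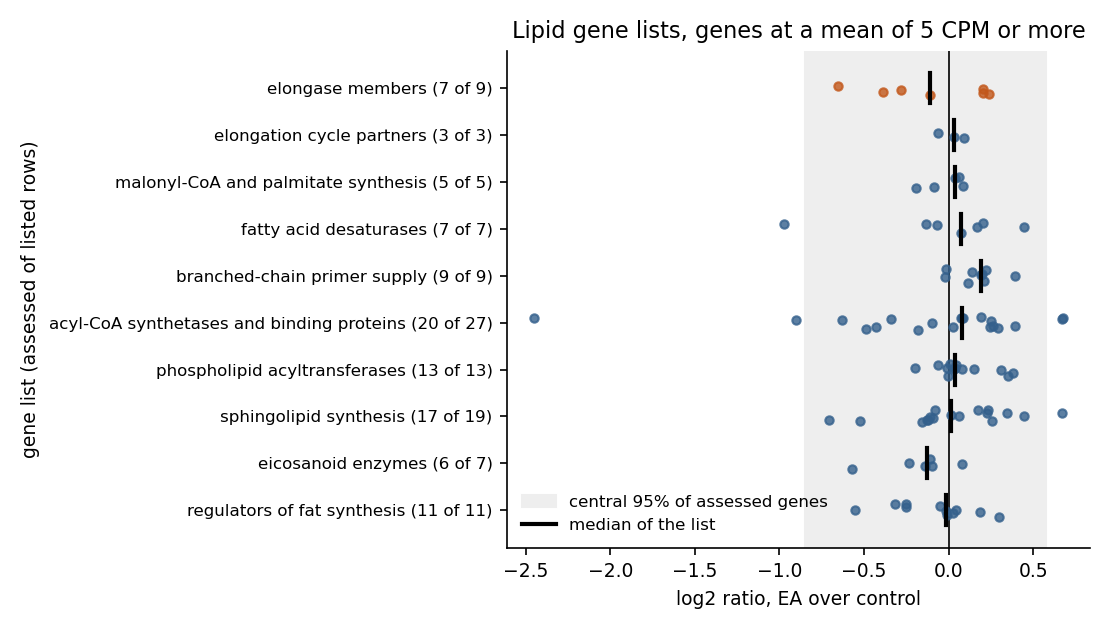
Log2 ratio of EA to control for each assessed gene (points, shifted up or down at random within a row for legibility) of the elongase family and 9 related gene lists, with the median of each list as a black bar, the central 95% of assessed genes shaded and 1 library per group. The elongase genes lie between -0.65 and 0.24, and most related genes lie inside the shaded range, with acs-2 far to its left.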

How the data were processed

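The authors deposited 1 table with raw counts and FPKM per gene for 1 EA library and 1 control library. Groups came from the sample titles, and columns were matched through the sample descriptions. The NEBNext Ultra kit was used on 1 µg of RNA and reads were referred to WBcel235, per the labels' protocols. Of tools, the submitters' processing notes name edgeR, with no version. Aligner, counter and strand setting were not given in the sources used here.

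Computed here, from the deposited counts, were effective library sizes (trimmed mean of M values, TMM, edgeR 4.0.16, R 4.3.3), CPM, and log2 ratios of EA to control (pseudocount of 0.5). Ratio intervals are exact conditional binomial (Clopper-Pearson) 95% intervals. FPKM intervals are exact Poisson intervals of the count, and intervals of ratios between members are normal intervals on the log scale. A count of 3 corresponds to 0.0752 CPM in the EA library and 0.0726 CPM in the control library. All rows were fitted, and p-values were not computed. Transcript length is the longest transcript in Ensembl release 115, known for 19973 of 19984 annotated rows. The length trend is a lowess curve with a span of 0.3. The steps were tested on simulated data.

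Lists and members were chosen with earlier results of these data known. Named are the 9 elongase genes and every member of pathway lists of up to 7 genes. Of longer pathway lists up to 4 assessed members with the largest absolute log2 ratio are named, and of the leucine breakdown list all. Also named are overlapping genes, part of the adjacent genes, and the 3 genes nearest to elo-9 in level. Marker lists were counted, and a marker is named only where it had 0 counts or turned direction. The listed gene acl-10 matched no row. Sequences were not used here.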

Additional observations from a re-analysis of the deposited data

How the results depend on the processing

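Every member kept the direction of its ratio under the 7 alternatives that can change a ratio (3 other scalings, deposited FPKM, a pseudocount of 5, the length trend removed, and added gene models left out). Minimum means of 1 CPM, 20 CPM or none change only which genes are counted. The log2 ratio ranged from -0.67 to -0.59 for elo-9, from -0.40 to -0.32 for elo-6, from -0.29 to -0.21 for elo-2, from -0.12 to -0.04 for elo-5, from 0.19 to 0.27 for elo-1 and from 0.17 to 0.27 for elo-3. No member passed 2-fold under any of them. With a minimum of 1 CPM or none, the members' median was 0.20, and 2 members were at least 25% higher. At 20 CPM 1 member was at least 20% lower. Of all genes tested at 1 CPM, 2.03% were at least 2-fold higher and 3.52% lower, at 20 CPM 0.0139% and 0.722%, and with no minimum 4.78% and 7.80%. Past the smaller limit were 12.9% higher and 19.2% lower at 1 CPM, 7.45% and 9.87% at 20 CPM, and 12.97% and 19.5% with no minimum. With FPKM 14.8% of genes were at least 25% higher, and with the length trend removed 0.998% were at least 2-fold lower, and for both the cause was not tested. No paired analysis was possible because each group has 1 library. Depth limits elo-4, elo-7, elo-8 and elo-9 most, at 84 to 437 counts.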

Other observations

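The deposited annotation places 29 further rows in the KEGG pathway of fatty acid elongation, and 24 of them were assessed. This list also holds mitochondrial and beta-oxidation enzymes, and it was looked at after the member values were seen. Of the 24, 5 were at least 25% higher with EA and 3 at least 20% lower, beside 9.83% and 15.6% of assessed genes. At least 2-fold higher was 1 and at least 2-fold lower were 0, beside 0.481% and 1.52%. The median log2 ratio was 0.10. The gene past 2-fold was T05E7.1, at 400 counts with EA and 193 in the control (log2 ratio 1.10, interval 0.85 to 1.36). With 4.67 CPM in the control, T05E7.1 passed the minimum mean of 5 CPM only through its EA level of 10.02 CPM. The beta-oxidation gene ech-1.1 had 0.94, hacd-1 had -0.66 and ppt-1, a palmitoyl-protein thioesterase gene, had -0.58. The elongases elo-1 to elo-7 and elo-9 stand in the same pathway and had log2 ratios from -0.65 to 0.63.

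The protein-coding genes next to the elongases had ratios on both sides of 1. Beside elo-6, htp-1 of meiotic chromosomes had 3685 counts with EA and 3056 in the control (log2 ratio 0.32), opposite to elo-6. On the other side of elo-6, F41H10.12, not assessed, had 5 counts with EA and 28 in the control, the same direction as elo-6. Beside elo-5, F41H10.2, not assessed, had 4 counts with EA and 26 in the control. Further adjacent genes under the minimum are not given here. Beside elo-1, ndua-5 had 2447 counts with EA and 3205 in the control (-0.34), opposite to elo-1. Beside elo-2, F11E6.6 had 276 counts with EA and 373 in the control (-0.38), the same direction as elo-2. Beside elo-4, the collagen IV gene emb-9 had a log2 ratio of -0.10, opposite to elo-4. Beside elo-9, pole-4 had -0.06 with an interval that includes 0.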
